A study of Mus musculus with 6 samples.

Results

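Cytosolic ribosomal protein genes were taken from the count table by name, as every gene whose symbol begins with Rpl or Rps followed by a digit, by a, or by p0, p1 or p2, without ribosomal S6 kinases and without symbols that carry -ps. The rule took 90 of the 16254 genes listed, and no measured value entered it. Of these, 77 encode the core proteins of the cytosolic ribosome, 46 in the large and 31 in the small subunit. The other 13 are the retrogenes Rps27rt and Rpl37rt, the paralogs Rps27l, Rpl22l1, Rpl36al, Rpl7l1, Rpl3l, Rpl39l, Rps4l, Rps3a2, Rps3a3 and Rpl6l, and Rps19bp1, which encodes a binding protein of RPS19 and not a part of the ribosome. Of these, Rpl37rt, Rps4l, Rps3a2, Rps3a3 and Rpl6l are annotated as processed pseudogenes in GENCODE vM21.

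Ribosomal proteins assemble with ribosomal RNA in the nucleolus into a large and a small subunit, and the subunits are joined only when an mRNA is translated. Most mRNAs of these proteins begin with a run of pyrimidines, the 5' TOP motif, through which mTORC1 and the RNA-binding protein LARP1 set how much of each is translated, so that protein output can change with little change in mRNA. Many ribosomal proteins also have processed copies elsewhere in the mouse genome, whose sequence is close to that of the parent mRNA.

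Eosinophils had been grown from C57BL/6 mouse bone marrow with FLT3 ligand and stem cell factor and then with IL-5, without further genetic change. They were cultured for 24 h with 5e9 extracellular vesicles (EVs) per ml from activated Th2 cells, prepared by size exclusion chromatography, or with unconditioned medium carried through the same preparation (sham-treated). RNA was poly(A)-selected and sequenced from 3 sham-treated and 3 EV-treated samples, numbered as biological replicates, with no animal or culture named for any of them, so the p-values below measure the spread between these samples.

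The libraries held between 23697620 and 37874426 estimated counts, with the 3 sham-treated libraries and EV replicate 1 below the other EV-treated libraries. All 10 eosinophil markers looked for were present, led by Prg2 (major basic protein) and Epx (eosinophil peroxidase). Their summed normalized count lay between 927678 and 1169542 in the sham-treated and between 1325043 and 1482379 in the EV-treated samples, and 7 of the 10 rose. Of 11 macrophage markers, 9 fell and Adgre1 rose, and their sum was between 83921 and 131904 in the sham-treated and between 45345 and 52195 in the EV-treated samples. Of 7 basophil and mast cell markers tested, 5 rose, with a sum between 4510 and 5943 in the sham-treated and between 11570 and 13681 in the EV-treated samples. These cultures are bulk samples, in which fewer cells of a type and less RNA per cell cannot be told apart. The part of cell make-up in the ribosomal protein results was not tested.

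Near-identical copies decide how reads could be assigned to several members, so their sequences are given first. In GENCODE vM21 (mouse build GRCm38, the same assembly as mm10), 61 of the 90 members had at least 50% of the 31-base words of their main transcript in another gene, with a median of 63.3%. The coding sequences of Rps27 (chr3:90212522-90213651, minus strand) and of its retrogene Rps27rt (chr9:114982366-114982739, minus strand) are the same in all 252 bases before the stop codon, and 98.7% of the words of the Rps27 transcript occur in Rps27rt. The paralog Rps27l (chr9:66946086-66949516, plus strand) has a coding sequence of the same length that differs at 60 of these bases (76.2% identity) and shares no word with Rps27. Both read as follows from the start codon, with capitals at the bases that differ between Rps27 and Rps27l:
Rps27 and Rps27rt: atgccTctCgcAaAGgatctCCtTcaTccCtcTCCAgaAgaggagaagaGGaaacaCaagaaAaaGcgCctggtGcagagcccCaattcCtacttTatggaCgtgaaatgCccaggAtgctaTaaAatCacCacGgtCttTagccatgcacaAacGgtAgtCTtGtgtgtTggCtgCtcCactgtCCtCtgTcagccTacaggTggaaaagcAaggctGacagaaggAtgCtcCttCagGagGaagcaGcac
Rps27l: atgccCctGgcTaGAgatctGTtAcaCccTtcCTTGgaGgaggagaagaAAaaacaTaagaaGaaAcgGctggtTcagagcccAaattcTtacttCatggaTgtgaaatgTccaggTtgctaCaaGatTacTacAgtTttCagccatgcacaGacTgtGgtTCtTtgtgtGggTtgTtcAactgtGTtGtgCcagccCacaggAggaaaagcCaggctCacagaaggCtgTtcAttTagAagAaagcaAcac
Reads from the coding part of Rps27 and Rps27rt cannot be told apart, whereas Rps27l offers differences along its whole length. Rpl10 (chrX:74270812-74273135, plus strand) and its copy Rpl10-ps3 (chr9:50344201-50344968, minus strand) are likewise the same in all 642 coding bases.

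Most ribosomal protein mRNAs differed little in level between EV-treated and sham-treated samples, and a few moved apart from the rest. Of the 90 members, 87 passed the filter on low counts. Rps3a2, Rps3a3 and Rpl6l did not, with at most 1, 6 and 18 counts in any library. By edgeR's quasi-likelihood test with Benjamini-Hochberg adjustment over all 13498 genes tested, 12 of the 87 rose and 3 fell at an adjusted p under 0.01, which is 17.2% of the members beside 23.7% of all genes (12.1% higher and 11.6% lower). Among the 5189 genes with a mean normalized count over 1000, where most members lie, the share called was 36.2%. The members' fold changes were small: 80 of the 87 (92%) lay within 0.5 of 0 on the log2 scale, where 66% of all genes and 79.8% of the genes with a mean over 1000 did. Their median was 0.10, beside -0.01 for all genes and 0.08 for the genes with a mean over 1000. With the further demand of a log2 fold change of 1 or more in either direction, which 9.45% of all genes met, Rps27 was the single member left.

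**Figure D1:**
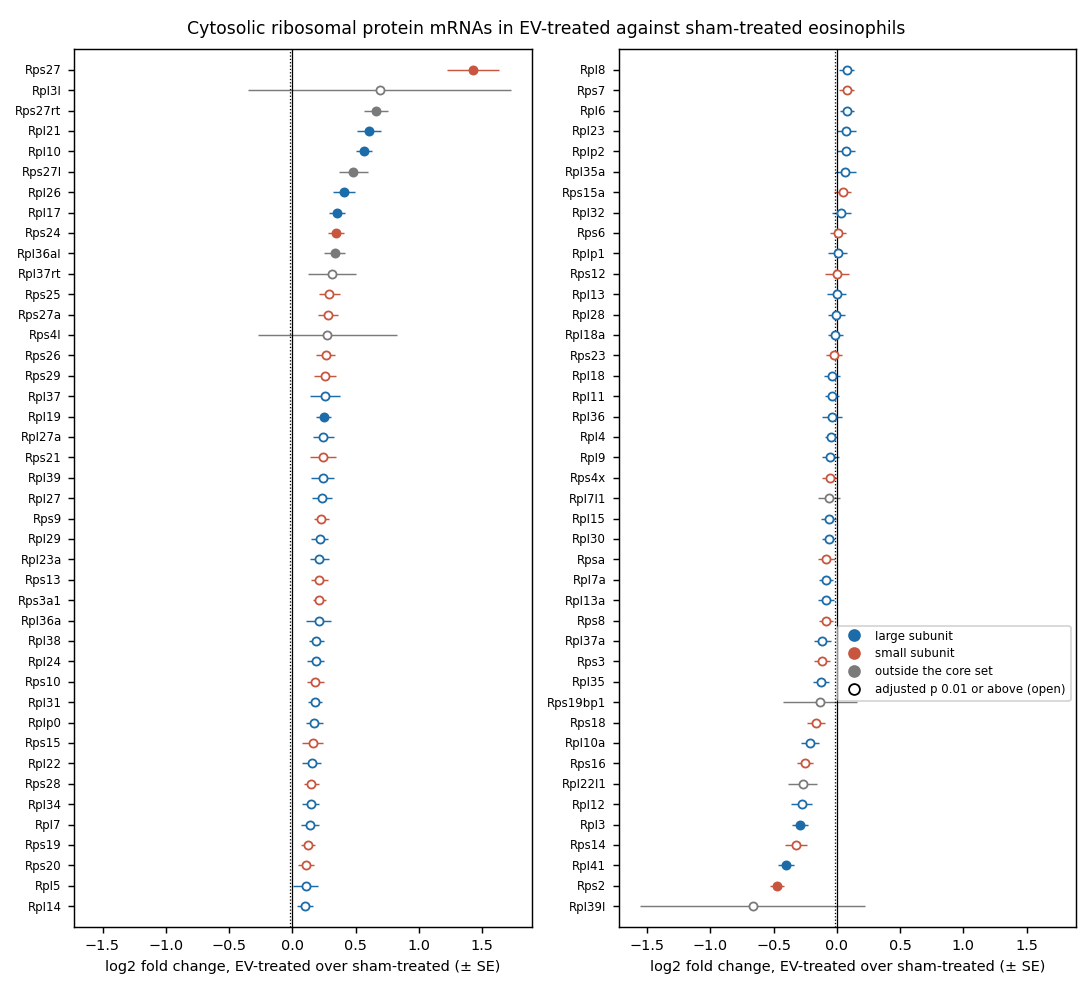
Log2 fold change of 84 of the 87 members tested (points, EV-treated over sham-treated; bars, SE), ranked from highest at the top left to lowest at the bottom right and coloured by subunit, with filled points at an adjusted p under 0.01. The dotted line is the median of all genes at -0.01, and Rps27 at 1.43 stands apart from a continuous series that ends with Rps2 at -0.48 and the low-count Rpl39l at -0.67.

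Both subunits held genes that rose and genes that fell. Of the 46 core large subunit genes, 5 rose and 2 fell (15.2% called), with a median log2 fold change of 0.08. Of the 31 core small subunit genes, 4 rose and 1 fell (16.1% called), with a median of 0.12. Both shares lay below the 23.7% of all genes, and the difference between the subunits was not tested. The ratio of summed large to summed small subunit counts was 1.23, 1.23 and 1.22 in the sham-treated and 1.23, 1.22 and 1.22 in the EV-treated libraries.

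The whole group took 3.77%, 3.46% and 3.73% of all counts in the sham-treated libraries and 3.37%, 3.33% and 3.54% in the EV-treated libraries. The lowest sham-treated library thus lay below the highest EV-treated one. The share and the fold changes rest on different denominators, because TMM, the edgeR scaling, multiplied the library totals by 1.04 to 1.06 in the sham-treated and by 0.936 to 0.958 in the EV-treated samples. On library totals alone, the median of all genes fell to -0.16 and that of the members to -0.05, and 5 members were then called higher and 15 lower (all genes: 7.68% higher, 17.4% lower). Members lay 0.11 above all genes under either scaling, and none of the 15 genes called with TMM changed direction. With TMM, the genes with a mean normalized count over 1000 had a median of 0.08, close to the 0.10 of the members. The distance from all genes is thus not particular to the members.

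**Figure D2:**
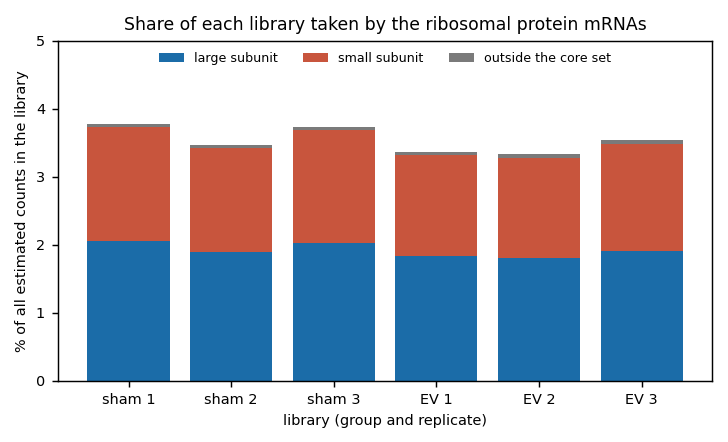
Percent of all estimated counts in each of the 6 libraries taken by core large subunit, core small subunit and non-core members (stacked bars from 0). The totals run from 3.33% (EV replicate 2) to 3.77% (sham replicate 1), and the 2 groups overlap.

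Among small subunit genes, the highest fold change was that of Rps27, a zinc finger protein of the 40S subunit. Its normalized count was 244, 299 and 224 in the sham-treated and 485, 796 and 778 in the EV-treated samples (256 ± 39.0 and 686 ± 175, mean ± SD, n = 3). The groups did not overlap, and the log2 fold change was 1.43 ± 0.20 (SE; edgeR adjusted p = 0.000389). These counts stand beside far higher ones for the retrogene with the same coding sequence. Rps27rt had 6860, 6283 and 8123 in the sham-treated and 11427, 10154 and 12049 in the EV-treated samples. Rps27rt rose by 0.66 ± 0.10 on the log2 scale (edgeR adjusted p = 0.000484), again without overlap.

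Rps24, mutated in some cases of Diamond-Blackfan anemia, rose by 0.34 ± 0.06 (edgeR adjusted p = 0.00208), from 15390 to 16966 up to 19320 to 21994 counts. Only 26.2% of the words of Rps24 occur in other genes, so that copies bear less on it than on most members.

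Among large subunit genes, Rpl21 rose from 4474, 3884 and 4521 normalized counts in the sham-treated to 6464, 5805 and 7323 in the EV-treated samples, by 0.61 ± 0.09 on the log2 scale (edgeR adjusted p = 0.000642). Rpl10, which completes the peptidyl transferase region late in 60S maturation, had 3486, 3417 and 3271 counts against 4844, 4949 and 5283. The spread of Rpl10 was narrow in both groups, and it gave the lowest adjusted p of all members, 6.6e-05 by edgeR's test, with a log2 fold change of 0.57 ± 0.06. Rpl26, known for its binding to the p53 mRNA, went from 10477, 9448 and 11944 to 13783, 13155 and 15346 counts, a rise of 0.41 ± 0.09 (edgeR adjusted p = 0.00543). The other large subunit genes called higher were Rpl17, which lines the exit tunnel, at 0.35 ± 0.06 (edgeR adjusted p = 0.00116) and Rpl19, a part of a bridge between the subunits, at 0.25 ± 0.06 (edgeR adjusted p = 0.00788). Neither overlapped between the groups.

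The genes that fell included some of the most abundant. Rps2, at the entry of the mRNA channel, had 21560, 20567 and 21584 normalized counts in the sham-treated and 14505, 15445 and 15885 in the EV-treated samples. It fell by 0.48 ± 0.06 on the log2 scale (edgeR adjusted p = 9.51e-05). Rpl41, which encodes the smallest ribosomal protein, had 31010, 28134 and 27649 against 21136, 21561 and 22916 counts and fell by 0.40 ± 0.06 (edgeR adjusted p = 0.000555). Rpl3, a core protein of the peptidyl transferase center, fell by 0.29 ± 0.06 (edgeR adjusted p = 0.00583), from 10970, 11454 and 12621 to 9726, 9228 and 9734 counts. In all 3 genes every EV-treated sample lay below every sham-treated one.

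**Figure D3:**
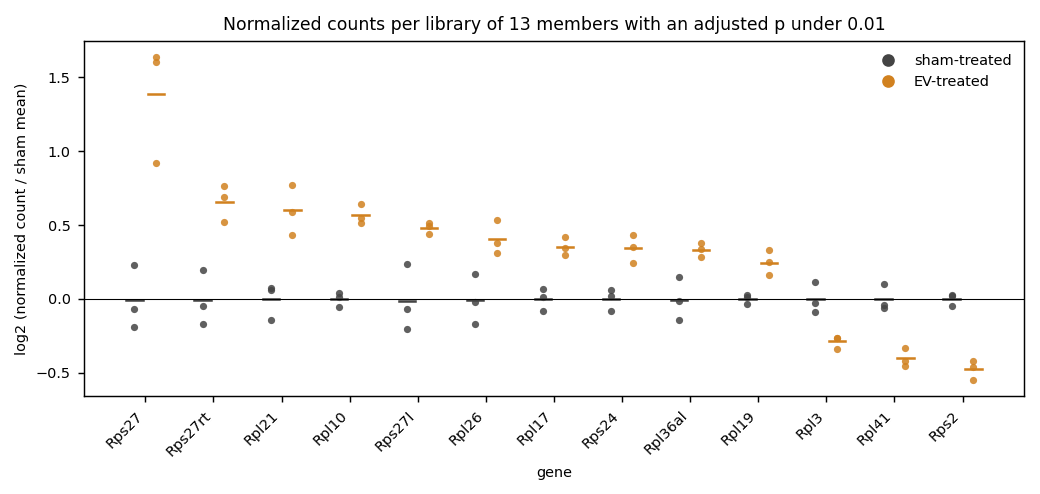
Normalized count of each library relative to the sham mean (log2 axis; points, 3 sham-treated and 3 EV-treated libraries; short lines, mean of the log2 values) for 13 of the 15 members with an adjusted p under 0.01. The 2 groups do not overlap for any of these genes, and the EV-treated libraries of Rps27 lie farthest from the sham mean.

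The groups did not overlap for 37 of the 87 members (31 higher and 6 lower) beside 49.6% of all genes (24.8% higher, 24.7% lower). Just outside the threshold stood Rps16 (-0.25, edgeR adjusted p = 0.0102), Rps3a1 (0.21, edgeR adjusted p = 0.0108), Rps9 (0.23, edgeR adjusted p = 0.0112) and Rps27a (0.28, edgeR adjusted p = 0.0158). At an adjusted p under 0.05, 25 members were higher and 7 lower, beside 17.5% and 18.4% of all genes. Rps14, on the platform of the small subunit, had a wide spread, with 41347, 34327 and 32279 counts in the sham-treated and 26858, 29845 and 29442 in the EV-treated samples. Its log2 fold change of -0.33 ± 0.09 did not pass (edgeR adjusted p = 0.0159), although the groups did not overlap.

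The members chosen for their roles mostly lay close to 0. Of the stalk that recruits elongation factors, Rplp0 had 35768, 31939 and 35659 against 37955, 37138 and 41601 normalized counts, a log2 fold change of 0.17 ± 0.06 (edgeR adjusted p = 0.0598). Its partners Rplp1 and Rplp2 overlapped between the groups, at 0.01 and 0.07. Rpl5 and Rpl11, which with 5S rRNA bind MDM2 when ribosome assembly fails, were at 0.11 ± 0.10 and -0.04 ± 0.06, with adjusted p of 0.451 and 0.663 in edgeR's test. Rps6, the substrate of S6 kinase, had 26292, 23397 and 26110 counts in the sham-treated and 24667, 24640 and 26924 in the EV-treated samples, a log2 fold change of 0.01 ± 0.06. The sham-treated values of Rps6 enclosed 2 of the 3 EV-treated values.

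Among members known for work outside the ribosome, Rpl13a, a part of the interferon-responsive GAIT complex, was at -0.09 ± 0.07, and Rps3, which also takes part in DNA repair and NF-kB activity, was at -0.12 ± 0.06 (edgeR adjusted p = 0.355 and 0.17). Rpl38, linked to the translation of Hox mRNAs, was at 0.19 ± 0.06 and Rps19, the gene most often mutated in Diamond-Blackfan anemia, at 0.12 ± 0.05 (edgeR adjusted p = 0.0365 and 0.102). Rpsa, the laminin receptor precursor, had 35763, 31951 and 36915 counts against 32026, 31928 and 34843, a log2 fold change of -0.08 ± 0.07. None of these passed the threshold. Rpl13 and Rps12 were within 0.01 of 0, with SEs of 0.07 and 0.09, and Rpl4, one of the 4 most abundant members, was at -0.05 ± 0.05.

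Because copies share sequence, the counts of each member were also added to those of related genes in the table, a step chosen after the data were seen. These were the genes that hold at least 50% of its words or carry its symbol followed by -ps. Retrogenes and paralogs whose parent holds at least 50% of their words were added to the parent too, with their own copies. With copies summed, 85 members were tested, of which 10 were higher and 4 lower (all genes: 12.2% and 11.7%). Copies were added to 52 members, and for 17 of these they came in by symbol alone, with under 50% of the words. Of the 52, 7 moved by at least 0.09 on the log2 scale, and 3 of the 7 (Rps16, Rpl28 and Rpl31) had copies by symbol alone. Rps27 with Rps27rt had 7104, 6582 and 8345 normalized counts in the sham-treated and 11911, 10952 and 12829 in the EV-treated samples. That sum rose by 0.70 ± 0.09 (edgeR adjusted p = 0.000221), about the value of Rps27rt alone, so that the pair rose by a smaller factor than the Rps27 gene listed on its own.

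Rpl10 lost its call. Rpl10-ps3 held 19795, 13344 and 15866 estimated counts in the sham-treated and 19453, 21307 and 23718 in the EV-treated libraries, several times those of Rpl10. Rpl10 and its copies together had 21351, 19777 and 22567 normalized counts against 24313, 23235 and 25961, a log2 fold change of 0.21 ± 0.07 (edgeR adjusted p = 0.0318). How much of the reads belongs to the parent gene cannot be told from the table.

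Rps16 went the other way. Alone it stood just outside the threshold, and with Rps16-ps2, a copy by symbol that holds under 50% of its words, it fell by 0.35 ± 0.06 (edgeR adjusted p = 0.00204), from 23492, 21205 and 20343 to 16396, 17725 and 16970 normalized counts. Rpl27 moved from 0.23 to 0.04 once the copy Gm11518 was added. Rpl11 moved from -0.04 to -0.20 with Gm10288, and neither passed the threshold in either form. The calls of Rps2, Rpl3, Rpl17, Rpl19, Rpl21 and Rpl26 were the same with their copies added.

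**Figure D4:**
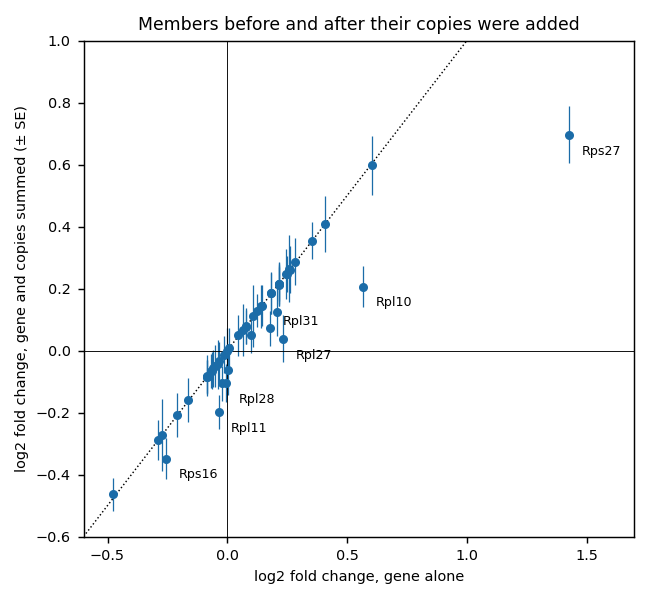
Log2 fold change of 50 of the 52 members with copies in the table, for the gene alone (horizontal axis) and for the gene and its copies summed (vertical axis; bars, SE), with the dotted line at equality. Most points lie on the line, and the 7 labelled genes moved by at least 0.09, among them Rps27 from 1.43 to 0.70 and Rpl10 from 0.57 to 0.21.

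The paralogs were set against their parent genes within each library, as the log2 ratio of counts plus 1, which does not depend on scaling. In 8 pairs, an exact two-sided permutation test over 3 against 3 samples can go no lower than p = 0.1, and the lowest value adjusted over the pairs was 0.267, so none passed. Rps27l, a p53-responsive paralog of Rps27, itself rose from 637, 699 and 865 to 1046, 993 and 1034 normalized counts (0.48 ± 0.12, edgeR adjusted p = 0.00903). The ratio of Rps27l to Rps27 was 1.38, 1.22 and 1.95 in the sham-treated and 1.11, 0.32 and 0.41 in the EV-treated samples, a difference of -0.90 (exact permutation p = 0.1). Against Rps27 and Rps27rt together, whose reads cannot be told apart, the ratio was -3.48, -3.23 and -3.27 in the sham-treated and -3.51, -3.46 and -3.63 in the EV-treated samples. That difference was -0.21 (exact permutation p = 0.2), with overlap between the groups.

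Rpl36al rose from 1941, 1781 and 2175 to 2391, 2488 and 2555 counts (0.33 ± 0.08, edgeR adjusted p = 0.00942), while its parent Rpl36a, whose coding sequence has 87.7% identity with it, was at 0.21 ± 0.10 (edgeR adjusted p = 0.121). The difference in their ratio, with each gene taken alone, was 0.12 (exact permutation p = 0.1). With its copies summed, Rpl36a was at 0.12 ± 0.08 (edgeR adjusted p = 0.247), and the ratio to that sum was not taken. Rpl22l1, which can take the place of Rpl22 in the large subunit, had 1200, 908 and 1215 counts in the sham-treated and 915, 917 and 923 in the EV-treated samples. Its ratio to Rpl22 differed by -0.41 (exact permutation p = 0.1), with no overlap between the groups. Rpl39l and Rpl3l, known from testis and from muscle, had at most 24.0 normalized counts in any library and gave SEs near 1 on the log2 scale, and Rps4l was little higher, with at most 84.7. Rpl7l1 was at -0.06 ± 0.09 beside 0.14 ± 0.07 for Rpl7.

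Across the 77 core members, taken as a description since they share libraries and scaling, the log2 fold change ran against abundance (Pearson's r = -0.48 and Spearman's rho = -0.39 with mean log2 count). With coding length the values were -0.19 and -0.27, with GC content -0.18 and -0.20, and with the share of words found in other genes 0.06 and -0.05. All of these use each gene alone. For members with near-identical copies, such as Rps27 and Rpl10, both count and fold change depend on how reads were assigned. The 38 core members with a coding length under the median of 456 bases had a median fold change of 0.15, beside 0.01 for the 39 others. Of the 38 shorter members, 4 rose and 1 fell (13.2% called), and of the 39 others, 5 rose and 2 fell (17.9%), beside 23.7% of all genes. Rpl41, with 75 coding bases, and Rps2, with 879, both fell. The part of length was not tested.

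Start sites were compared because the TOP motif lies there. RefSeq (GRCm38.p6) start windows of 300 bases, 250 before and 50 after the start, were at hand for 57 of the 77 core members and 27025 genes in all. In the 30 bases from 10 before to 20 after the start, 21 of the 57 (36.8%) held a run of at least 8 pyrimidines on the transcribed strand, beside 11.2% of all genes. The windows of 2 members with long runs that did not pass the test, of 2 genes that rose and of 2 that fell are shown with the longest run of C and T in capitals:
Rpl15, chr14:18270967-18270996, minus strand: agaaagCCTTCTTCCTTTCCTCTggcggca
Rpl13a, chr7:45128726-45128755, minus strand: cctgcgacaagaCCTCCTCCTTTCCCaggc
Rps27, chr3:90213629-90213658, minus strand: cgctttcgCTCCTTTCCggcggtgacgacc
Rps24, chr14:24490668-24490697, plus strand: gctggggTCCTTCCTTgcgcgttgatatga
Rps2, chr17:24720053-24720082, plus strand: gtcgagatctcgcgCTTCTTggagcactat
Rpl41, chr10:128549149-128549178, minus strand: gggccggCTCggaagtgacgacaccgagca
Runs of 14 to 17 bases thus occurred in members that did not pass the test. A run of at least 8 was held by 2 of the 5 core genes called higher, the 2 shown here. It was held by 19 of the 50 not called and by 0 of the 2 called lower. Across the 57, the length of the run and the fold change had a Pearson's r of -0.03 and a Spearman's rho of -0.10. Over the 300 bases and both strands, CTTTCC occurred in 26 of the 57 (45.6%; all genes 26.3%) and CCGGAAG, the core recognized by ETS factors, in 24 (42.1%; all genes 9.08%); CTTTCC and CCGGAAG can share 2 bases. Annotated starts need not be the starts used in eosinophils.

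The members varied together across libraries. Sham replicate 2 was the lowest library for 49 of the 77 core members and EV replicate 3 the highest for 47. The same counts were not made over all genes, so they cannot be called particular to the members. The median of the core members relative to their own means was 0.01, -0.14 and 0.01 on the log2 scale in the sham-treated samples and 0.02, -0.0050 and 0.11 in the EV-treated samples. Without sham replicate 2, 7 of the 87 members were called higher and 3 lower, and their median was 0.05. All genes then numbered 1388 higher and 1342 lower of 13817. Without EV replicate 3, 6 members were higher and 2 lower with a median of 0.08, beside 1071 higher and 1018 lower of 13959 genes. With all 6 samples, 1632 genes were higher and 1572 lower of 13498. The calls of Rpl3, Rpl19, Rpl26, Rpl36al and Rps27l rested on all 6 samples, since each was made in only 1 or 2 of the 6 analyses without one sample, always in the same direction.

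**Figure D5:**
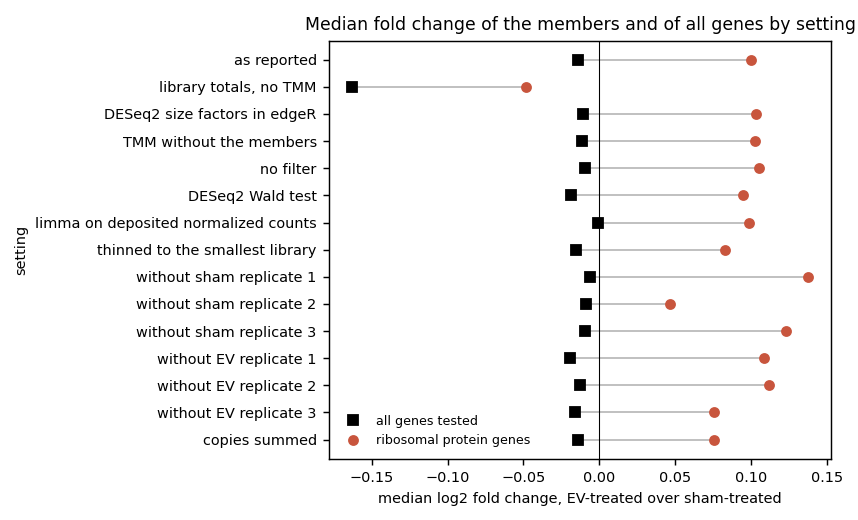
Median log2 fold change (EV-treated over sham-treated) of the members (circles) and of all genes tested (squares) as reported and under 14 other settings. The members lie to the right of all genes in each of them, and their median falls below 0 only when library totals replace TMM, to -0.05 beside -0.16 for all genes. Genes with a mean normalized count over 1000, whose median as reported was 0.08, are not shown.

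In the other lists of the translation machinery with at least 10 genes tested, the share called ran from 5.88% (ribosome quality control) to 25% (elongation and termination factors, and regulators of mTORC1 and TOP mRNAs), beside 23.7% of all genes. Rps27a and Fau encode ribosomal proteins fused to ubiquitin or a ubiquitin-like protein. Fau rose from 21080, 19438 and 19948 to 23894, 24191 and 27461 normalized counts (0.32 ± 0.07, edgeR adjusted p = 0.00365). Of 17 other mRNAs known to carry a TOP motif or to be controlled like one, Tpt1 rose (0.38 ± 0.05, edgeR adjusted p = 0.000394) and 3 fell, namely Npm1, the nucleolar chaperone, by 0.50 ± 0.08, Nap1l1, a histone chaperone, by 0.49 ± 0.08, and Eif4b, a cofactor of the helicase eIF4A, by 0.32. The median of this list was -0.05, and the share called was 23.5%.

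Of 79 genes with a symbol of a mitochondrial ribosomal protein, from which -ps symbols were not left out, 2 rose and 4 fell, with a median of -0.14. Mrpl33 rose by 0.94 ± 0.08, from 1629, 1545 and 1418 to 3023, 2738 and 3062 counts, and Mrpl38 fell by 1.09 ± 0.18 (edgeR adjusted p = 9.61e-06 and 0.00112). Of 99 ribosome biogenesis genes, 3 rose and 7 fell (median -0.11). Grwd1, a histone-binding assembly factor, fell by 1.20 ± 0.21 and Mdn1, the ATPase that releases assembly factors, by 0.69 ± 0.17, whereas Dkc1, the pseudouridine synthase, rose by 0.74 ± 0.18. Of 15 RNA polymerase I genes, Polr1a, its largest subunit, fell by 0.92 ± 0.09 from 1385, 1717 and 1657 to 849, 824 and 847 counts, and Ubtf, which binds ribosomal DNA, rose by 0.28 ± 0.06 (edgeR adjusted p = 4.35e-05 and 0.00389).

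Initiation factors numbered 3 higher and 2 lower of 41, and elongation and termination factors 3 higher and none lower of 12 by edgeR's test. The termination factor Etf1 rose by 0.85 ± 0.06 and Eef2k, the kinase that inhibits eEF2, by 0.68 ± 0.06, both without overlap. Of 24 regulators of mTORC1 and of TOP mRNAs, 3 rose and 3 fell. The mTOR inhibitor Deptor fell by 1.90 ± 0.29, Sesn2, a leucine sensor that restrains mTORC1, rose by 0.91 ± 0.08, and Myc, an activator of ribosomal genes, rose by 0.85 ± 0.14 from 322, 434 and 333 to 668, 676 and 620 counts. Larp1 (-0.13 ± 0.08), Eif4ebp1 (-0.01 ± 0.09) and Rps6kb1 (0.24 ± 0.11) did not pass the threshold (edgeR adjusted p = 0.238, 0.928 and 0.102). Of 17 ribosome quality control genes, Ascc2 fell by 0.64 ± 0.14 (edgeR adjusted p = 0.00506) and none rose by edgeR's test.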

How the data were processed

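RNA-seq of 3 sham-treated and 3 EV-treated samples was analysed, with groups and replicate numbers taken from the sample labels. The authors trimmed reads with Cutadapt after FastQC, quantified them with Salmon and deposited estimated counts per gene symbol, which need not be whole, for 16254 genes. The submitters' processing notes name mm10, and the annotation and strandedness are not given in the sources used here. A second table that the authors deposited holds a signal per gene, the counts scaled by DESeq2 size factors, and served as an alternative. Their table of fold changes and p-values was not used.

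Estimated counts were rounded, filtered with filterByExpr (minimum count 10), scaled with TMM and tested with edgeR 4.0.16 (R 4.3.3) over 13498 genes, with Benjamini-Hochberg adjustment and a threshold of 0.01. Each SE was taken from the fold change and the F statistic of its test. Normalized counts in the text were brought to a common effective library size, the geometric mean over the 6 samples, after TMM. DESeq2 1.42.0 and limma 3.58.1 (log2 of the deposited values plus 1) gave alternatives. The edgeR test was tested on simulated data. Precision at this depth is set by the spread between samples, and counting error matters only for members with few counts.

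The name rule gave the members. Genes were named if they were among up to 8 called with the highest and up to 8 with the lowest fold change, the 4 most abundant, the 3 nearest to 0, members with set roles, paralog pairs, and the 3 most changed genes called in each other list; Rps16, Rpl28, Rpl31, Rps24, Rps9, Rps3a1, Rpl17, Rpl19, Rpl27, Rpl15, Eif4b, Prg2, Epx and Adgre1, and the copies of members, were named after their values were seen. A few genes are left out of the text and plots and are not reported here. The members and lists were chosen with earlier results of these data known. Coordinates, lengths and shared 31-base words come from GENCODE vM21 transcripts. Marker lists for B cells (0 of 4 tested called by edgeR), dendritic cells (0 of 3), T cells (2 of 4 lower), neutrophils (1 higher and 4 lower of 9), erythroid cells (1 of 2 higher) and cycling cells (1 of 6 higher) were also counted.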

Additional observations from a re-analysis of the deposited data

How the results depend on the processing

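The 12 members called higher became 5 on library totals, 21 with DESeq2, 25 at an adjusted p under 0.05, 1 with a fold threshold of 1 on the log2 scale and 3 without members that share over 50% of their words. The 3 called lower became 15, 5, 7, 0 and 0 in the same order. These numbers are out of 87 members, except for 90 with DESeq2 and 29 in the last setting. The 3 that rose among those 29 are 10.3%, beside 13.8% of the 87 members and 12.1% of all genes. The 0 that fell among them stand beside 3.45% of the 87 members and 11.6% of all genes. Leaving out 1 sample gave 6 to 15 higher and 2 to 4 lower. The members' median reversed to -0.05 (-0.04852) on library totals and otherwise kept its sign. Over all genes, the 1632 higher became 1036 on library totals and 419 with the fold threshold. The 1572 lower became 2478 at an adjusted p under 0.05 and 857 with the fold threshold. DESeq2 called 1977 of 16164 genes as rising and 1953 as falling. Leaving out 1 sample gave 1071 to 1833 higher and 1018 to 1698 lower. The fold threshold and the removal of members that share over 50% of their words can only make these counts smaller. The looser adjusted p of 0.05 can only make them larger. For the other settings the cause was not tested.

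The replicate numbers are shared by the groups, but the labels name no culture or animal that would pair them. Same-numbered samples deviated together with r = 0.12, 0.08 and 0.04 over all genes and 0.31, 0.72 and 0.40 over the 87 members. Over all genes, EV replicate 3 correlated better with sham replicate 2 than with its own number. With the replicate block, 18 members were higher and 5 lower (all genes: 13.3% and 13.2%). Rps14, Rps16, Rps3a1, Rps9 and Rps27a, outside the threshold without the block, were then called by edgeR (adjusted p = 0.00393, 0.0066, 0.00874, 0.00703 and 0.00284). Core large subunit genes numbered 5 higher and 2 lower of 46 with the block, and core small subunit genes 10 and 3 of 31.

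The calls of Rps2, Rpl41, Rpl10, Rpl21, Rps27rt and Rps27 were made under each of 8 alternatives (other scalings, no filter, DESeq2, limma, thinned libraries and the replicate block) and without each sample in turn. All of these keep the deposited split of reads between a gene and its copies, so they cannot test that split. With copies summed, Rpl10 lost its call, and Rps27 kept it with a log2 fold change of 0.70 in place of 1.43. Rpl3, Rpl26, Rps27l, Rpl36al and Rpl19 were each called in 1 or 2 of the 6 analyses without one sample. The difference in the ratio of Rps27l to Rps27 moved from -0.90 to -0.21 with Rps27rt added to Rps27, a comparison added after the data were seen.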
